A study of Mus musculus with 20 samples.

Results

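The Snrpn-Ube3a imprinted domain of mouse chromosome 7 was examined for promoter DNA methylation in single blastocysts. Its 8 named genes are Snrpn, Snurf, Ube3a, Atp10a, Ndn, Magel2, Mkrn3 and Peg12, and it was taken as every promoter window on chromosome 7 whose start lies between fixed positions on either side of these genes in build GRCm39. This rule gave 236 windows of the 54034 in the deposited table, each 3500 bp long, with the first start at 58201668 and the last at 62333935. Methylation was read by bisulfite sequencing of the DNA that remained once beads had captured the polyadenylated RNA of that embryo. The control group held 10 blastocysts (replicates 1 to 10) and the Padi6-mutant group 10 (replicates 11 to 20). Padi6 encodes a protein of the oocyte's cytoplasmic lattices, and the mutant embryos came from oocytes that carried the mutation, so the defect is maternal. The labels give the genotype as control or Padi6-mutant and nothing on strain, sire, mother, litter, sex or sequencing batch. Each embryo was treated as a replicate, so a p-value reflects the variation among these embryos, and a mother may have given more than 1 of them. The comparison asks whether methylation of an imprinted domain differs at the blastocyst stage when PADI6 is defective in the egg.

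In an imprinted domain the maternal and the paternal copy of the same DNA are methylated and transcribed differently. Here the promoter region of Snrpn and Snurf acquires methylation in the oocyte and keeps it on the maternal copy, while the unmethylated paternal copy is transcribed. Transcription from the paternal copy also runs into a long non-coding RNA that hosts arrays of small nucleolar RNA genes and reaches across Ube3a in antisense. Snrpn encodes a protein of the spliceosome, and Snurf is a small reading frame upstream of it on the same transcript. Ndn, Magel2, Mkrn3 and Peg12 are also expressed from the paternal copy, whereas Ube3a, a ubiquitin ligase, is expressed from the maternal copy in neurons. Atp10a encodes a phospholipid flippase at the far side of Ube3a. Loss of the paternal genes causes Prader-Willi syndrome in humans, and loss of maternal UBE3A causes Angelman syndrome.

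The DNA just upstream of the starts differed in the number of CpG dinucleotides, the sites at which methylation was read. The 250 bases before 4 starts are shown because they carry the imprinted promoter of Snrpn and Snurf, an upstream start of Snrpn, the promoter of a paternally expressed gene and the CpG-rich promoter of Ube3a. They are RefSeq sequences of build GRCm38.p6, written 5′ to 3′ on the strand of the gene with each CpG in capitals. The positions belong to that build. They were not converted to GRCm39, the build of the windows, and are not set against the window positions here.
Snrpn and Snurf, shared start, minus strand, chr7:60005200-60005449: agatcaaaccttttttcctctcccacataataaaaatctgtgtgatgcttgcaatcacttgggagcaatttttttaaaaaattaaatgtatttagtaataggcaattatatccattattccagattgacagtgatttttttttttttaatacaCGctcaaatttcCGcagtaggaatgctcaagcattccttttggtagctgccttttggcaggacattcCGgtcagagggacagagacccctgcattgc
Snrpn, an upstream start, minus strand, chr7:60140226-60140475: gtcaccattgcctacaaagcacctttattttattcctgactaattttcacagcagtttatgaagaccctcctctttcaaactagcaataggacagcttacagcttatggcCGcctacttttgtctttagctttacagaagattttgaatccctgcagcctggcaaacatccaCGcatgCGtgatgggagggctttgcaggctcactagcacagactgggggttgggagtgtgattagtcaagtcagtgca
Ndn, plus strand, chr7:62348027-62348276: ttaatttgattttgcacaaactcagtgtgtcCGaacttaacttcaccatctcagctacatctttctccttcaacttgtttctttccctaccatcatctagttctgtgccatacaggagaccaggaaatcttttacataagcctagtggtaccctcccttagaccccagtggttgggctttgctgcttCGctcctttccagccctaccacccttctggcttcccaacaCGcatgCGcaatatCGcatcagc
Ube3a, plus strand, chr7:59228500-59228749: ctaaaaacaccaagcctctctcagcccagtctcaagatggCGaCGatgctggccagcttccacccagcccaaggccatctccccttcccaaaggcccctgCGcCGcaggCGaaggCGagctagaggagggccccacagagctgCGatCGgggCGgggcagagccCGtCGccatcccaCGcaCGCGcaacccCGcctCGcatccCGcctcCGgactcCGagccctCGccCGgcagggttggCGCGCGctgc

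The shared start of Snrpn and Snurf had 3 CpGs in these 250 bases, and 71.2% of the 32536 RefSeq promoters had as many or more. The upstream starts of Snrpn had 2, 3 and 4. Ndn had 5, Magel2 7, Peg12 8, Mkrn3 10, Atp10a 14 and Ube3a 24, against a median of 6 over all promoters. Only 12.1% of promoters had as many as Ube3a. The letters GCATGCG, searched on both strands, stood before the 3 upstream starts of Snrpn and before Ndn, each time as a pair of overlapping matches on opposite strands, and in 3.03% of all promoters. The letters TGCCGC, the motif of the imprint-binding protein ZFP57, were in none of these stretches of 250 bases and in 8.75% of all promoters on either strand.

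The windows carry positions without gene names, and the gene table at hand was on the other build, so no window was assigned to a single gene. The domain is therefore described in stretches, from the Atp10a end over the small nucleolar RNA genes and Snrpn to a gap and the genes from Ndn to Peg12. Most windows lay in a pair of regular runs. From 58991543 to 59283424, 105 windows followed each other at a median spacing of 1871 bp. From 59322803 to 59575870, 64 followed each other at a median of 2528 bp. In the RefSeq gene table the 134 small nucleolar RNA genes between Ube3a and Ipw, a non-coding gene of the domain, were also spaced by a median of 1871 bp, and the 72 between Ipw and Snurf by 2528 bp, of which 17 bear the name Snord116. The runs are called the close-spaced array and the wide-spaced array below. The stretch first drawn for Atp10a to Ube3a holds 97 windows, of which 77 lie in the close-spaced array, so the arrays and the 20 windows before them are used in its place. Copies within an array are repeats of similar sequence, so reads may map to more than one of them, and how the authors treated such reads is not given in the sources used here. Neighbouring windows share bases, since 156 of the 236 overlapped the next, and they are not independent measurements.

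Coverage set what could be compared. The domain gave 964 values, 654 in controls and 310 in mutants. Its windows had a value in a median of 3 of 20 embryos, against 10 over all windows. In all, 6 controls (replicates 1 to 5 and 10) and 3 mutants (11, 12 and 14) were densely covered, with a value at 37049 to 46950 windows, and the other 4 controls and 7 mutants had 2875 to 17002. In the domain the densely covered embryos had 35 to 161 windows each and the others 5 to 15. The table gives no read counts, so the depth behind a level is unknown and no counting interval can be given. Levels lay on coarse steps: in the close-spaced array 41.2% of values were exactly 0, 15.6% exactly 50 and 7.55% exactly 100. The mean level over all windows of the table was 12.2% to 16.5% in the 6 densely covered controls, and it was 11.1%, 7.16% and 17.6% in mutants 11, 12 and 14.

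**Figure D1:**
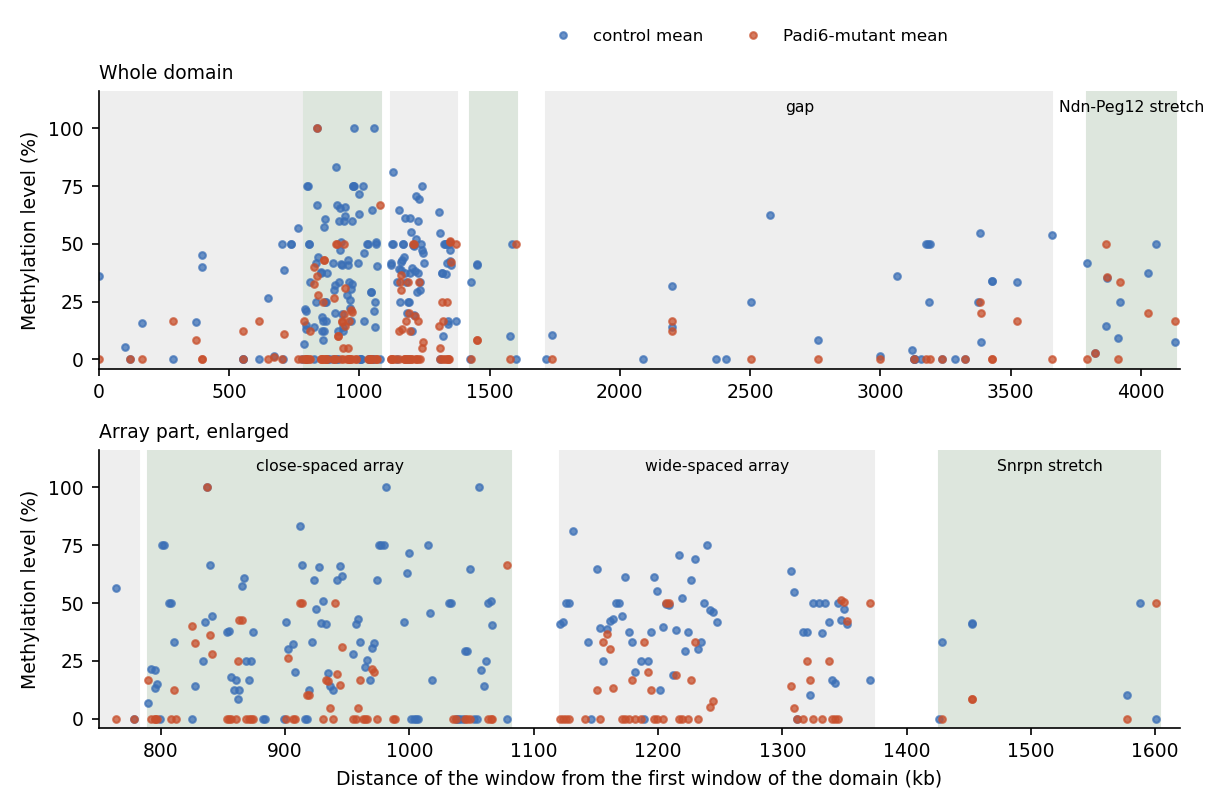
Methylation level in percent (vertical axis) of each window of the domain by its place along the domain (horizontal axis, kb from the first window; the lower panel enlarges the arrays and the Snrpn stretch), as the mean over the embryos of each group with a value. Most windows belong to the 2 arrays, where control means are mostly intermediate and mutant means mostly lower; the stretches of Snrpn and of Ndn to Peg12 hold 7 and 9 windows.

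The 2 arrays held intermediate methylation in control blastocysts and lower mean levels in mutants, and the gap between the groups was widest in the densely covered embryos. Over all 20 embryos the mean of the close-spaced array, in percent methylation averaged over the windows of an embryo, had a lowest, median and highest value of 0%, 35.1% and 46.7% in controls. In mutants these were 0%, 16.1% and 27.8%. The groups overlapped, although all 10 mutants lay below the control mean. Controls averaged 30.2% ± 14.1 (SD, n = 10) and mutants 15.5% ± 8.55 (SD, n = 10), which is -14.7 points apart. Of the 56 windows of this array with a value in both groups, 47 (83.9%) had the lower mean in mutants, 7 the higher and 2 the same. Over the genome the mean was lower in mutants in 56.2% of windows measured in both groups. With a control mean of 20% to 60%, all 31 such windows of the array were lower, against 80.3% over the genome. Neighbouring windows share bases and embryos. Windows of this array had a value in a median of 3 embryos, against 10 over all windows, so the shares over the genome are not matched for coverage. Many of the mutant means rest on 1 embryo. Mutant 12 had a value in 44 windows of the array, and these counts were not repeated without it.

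In densely covered embryos the close-spaced array stood at 19.8%, 36.6% and 42.4% in controls (lowest, median and highest of 6). It stood at 5.80%, 14.1% and 18.4% in mutants 11, 12 and 14. These groups did not overlap, a pattern found in 10.7% of 500 kb tiles of intermediate control level and in 3.53% of all tiles. The array was chosen after the values were seen and differs from the fixed tiles in extent and number of windows, so the units are unlike. The means were 33.7% ± 8.66 (SD, n = 6) and 12.7% ± 6.39 (SD, n = 3), so the mutants held 37.9% of the control level. Each of these means rests on 10 to 69 windows. In the sparsely covered embryos, which had 2 to 7 windows each, the array averaged 25% ± 20.3 (SD, n = 4) in controls against 16.7% ± 9.52 (SD, n = 7) in mutants, and the groups overlapped.

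The wide-spaced array, whose spacing matches that of the genes that include Snord116, was more methylated than the close-spaced array in controls. Its lowest, median and highest levels over all embryos were 31.6%, 42.5% and 89.3% in controls and 0%, 38.8% and 67.4% in mutants. The groups overlapped widely, with 6 of 10 mutants below the control mean and 4 below the lowest control. The means were 46.4% ± 16.3 (SD, n = 10) and 34.3% ± 23.3 (SD, n = 10), a difference of -12.2 points. Of its 49 windows measured in both groups, 39 (79.6%) had the lower mean in mutants, 9 the higher and 1 the same, against 56.2% over the genome. With a control mean of 20% to 60% it was 30 of 36 (83.3%), near the 80.3% over the genome, which is not matched for coverage here either. Without control 7, the highest control, the difference of the array was -7.39 points.

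Densely and sparsely covered embryos are given separately for the wide-spaced array too. Among densely covered embryos it stood at 31.6%, 37.5% and 47.6% in controls (lowest, median and highest of 6). It stood at 13.6% in mutant 11, 9.38% in mutant 12 and 14.7% in mutant 14. All 3 mutants lay below every densely covered control, as in 10.7% of tiles of like control level, which again are unlike the array in extent and number of windows. The means of 39.2% ± 6.00 (SD, n = 6) and 12.6% ± 2.82 (SD, n = 3) put the mutants at 32.1% of the control level. The 7 sparsely covered mutants averaged 43.6% ± 21.9 (SD, n = 7) and the 4 sparsely covered controls 57.3% ± 21.8 (SD, n = 4). Those embryos rest on 1 to 5 windows each in this array, and their means overlapped. No test was made on the level of a stretch, and the part that coverage plays in these differences was not tested.

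**Figure D2:**
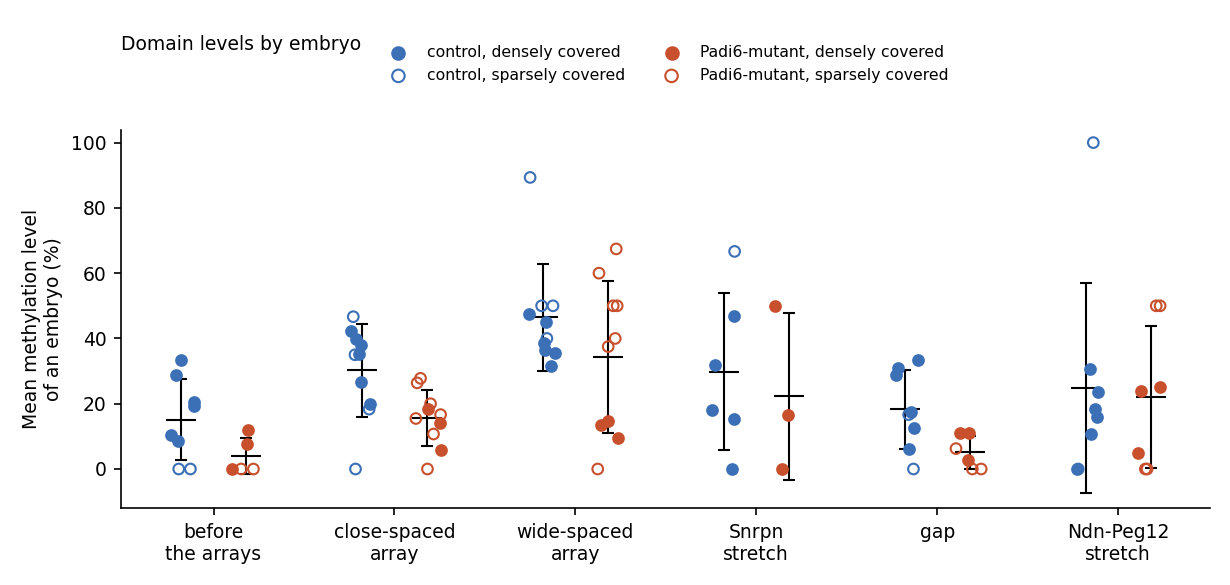
Mean methylation level in percent (vertical axis) of each stretch of the domain (horizontal axis) in every embryo with a value there. Each point is an embryo, filled where densely and open where sparsely covered, and bars give the group mean and SD; in both arrays the 3 densely covered mutants sit below the 6 densely covered controls, while in the Ndn to Peg12 stretch the groups intermingle.

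Lower levels in 3 mutants than in 6 controls were set against the rest of the genome by the same plain mean over tiles of 500 kb in the densely covered embryos. Of 4083 tiles, 3.53% had all 3 mutants below all 6 controls, and of the 843 tiles with a control mean of 20% to 60%, 10.7% did. The tile from 59000001 to 59500000, which holds 146 windows of both arrays, was one of these. Its levels were 29.7% to 46.9% in controls with a mean of 37.9%, and 10.1% to 17.5% in mutants with a mean of 13.5%. Its difference of -24.4 points was the 55th lowest of the 4083. Outside the arrays, the tile from 61500001 had a lower difference, -25.5 points over 9 windows, but its groups overlapped. Its windows lie in the gap, except the one at 61993317, which belongs to the Ndn to Peg12 stretch. The tiles from 58500001 and 61000001 differed by -15.0 and -12.5 points, and in neither were all mutants below all controls. The tiles from 60000001 and 62000001 differed by 0.536 and -0.567 points. The tile that follows the arrays' first, up to 60000000, had a mean of 34% in controls and 12% in mutants. There the groups met, since the lowest control stood at 15.7% and the highest mutant at 19.1%. The median difference was -2.68 points over all tiles and -10.9 points over the tiles with an intermediate control mean.

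Single windows of the close-spaced array varied widely between embryos. The window starting at 59104182 was the one measured in the most embryos, and its lowest, median and highest levels were 0%, 33.3% and 60% in 9 controls and 14.3%, 25% and 50% in 9 mutants. The groups overlapped, and the means of 30.2% ± 17 (SD, n = 9) and 26.4% ± 11.3 (SD, n = 9) differed by -3.80 points (SE 6.64, adjusted p = 0.883, limma). The window at 59147368 had 0%, 57.1% and 100% in 9 controls and 7.14%, 26.7% and 58.3% in 6 mutants, again with overlap. Its means were 61.9% ± 41.5 (SD, n = 9) and 30.9% ± 20.0 (SD, n = 6), and limma gave a difference of -31.0 points (SE 17.6, adjusted p = 0.834). At 59171482 the means were 30.6% (n = 6) and 21.5% (n = 4), -9.03 points apart, and the limma test was not passed (adjusted p = 0.873).

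The largest decreases among the 32 tested windows were at 59145496, 59511073 and 59158395; untested windows with fewer embryos included larger ones. At 59145496, in the close-spaced array, the 4 controls stood at 22.7%, 75%, 100% and 66.7% and the 4 mutants at 50%, 8.33%, 0% and 0%. Only mutant 11 reached into the range of the controls. The difference was -51.5 points (SE 18.3), with p = 0.025 before and 0.755 after adjustment by limma. At 59158395, in the same array, 7 controls had a lowest, median and highest level of 0%, 44.4% and 100%, and the 3 mutants were all at 0%. That difference was -40.8 points (SE 18), with an adjusted p of 0.834 by limma. At 59511073, in the wide-spaced array, the 4 controls stood at 37.5%, 25%, 100% and 56.2% and the 3 mutants at 14.3%, 0% and 0%. All 3 mutants lay below the lowest control, which held for 2 of the 32 tested windows of the domain (6.25%) against 1.02% of all tested windows, and for 2 of 21 (9.52%) against 3.53% where the control mean was 20% or more. The difference of -49.9 points (SE 17.9) had an adjusted p of 0.783 by limma. The smallest p of the domain belonged to the window at 59160261, which was singled out after its values were seen: 43.2% (n = 5) against 4.76% (n = 3), a difference of -38.4 points (SE 6.61) with a limma p of 0.000562 and an adjusted p of 0.255.

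In the wide-spaced array the window at 59362874 had the narrowest spread among controls of the named windows of that array. Its lowest, median and highest control levels were 30.8%, 41.2% and 50% (n = 7), and the 7 mutants had 0%, 25% and 57.1%. Of the mutants, 4 lay below the lowest control. The means were 42.2% ± 7.52 (SD, n = 7) and 30.2% ± 22.7 (SD, n = 7), a difference of -12 points (SE 8.67, adjusted p = 0.834, limma). In densely covered embryos alone the same window stood at 40.9% in controls and 9.66% in mutants, a difference of -31.2 points (SE 6.00, limma p = 0.000722, adjusted p = 0.266). Its neighbour at 59360351 averaged 38.9% ± 14.6 (SD, n = 7) and 36.7% ± 28.6 (SD, n = 5), and the groups overlapped.

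At the far end of this array 2 windows had the higher mean in mutants. At 59549029 the lowest, median and highest levels were 0%, 41.7% and 87.5% in 8 controls and 0%, 40.6% and 100% in 6 mutants. The difference was 8.66 points (SE 19.3, adjusted p = 0.909, limma), and it was -26.5 points in the densely covered embryos alone. At 59551555 the levels were 0%, 48.3% and 83.3% in 8 controls and 0%, 50% and 100% in 7 mutants. That difference was 3.24 points (SE 17.3, adjusted p = 0.965, limma) and -31.7 points in the densely covered embryos. In both windows the direction of the difference therefore depended on which embryos were used.

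**Figure D3:**
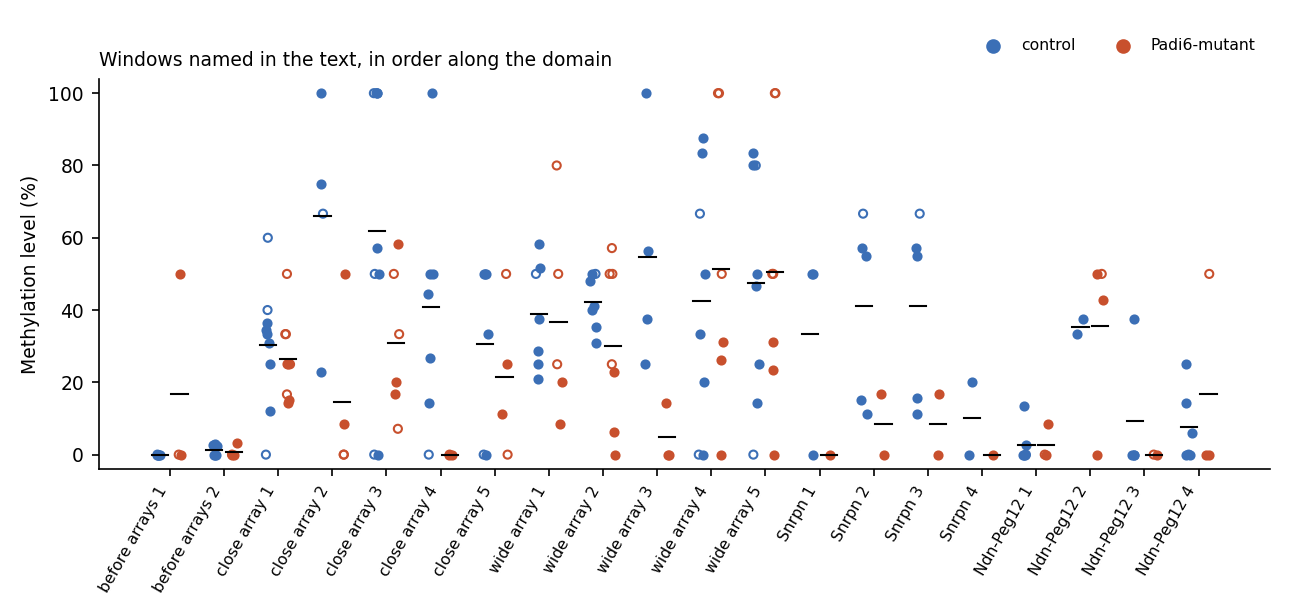
Methylation level in percent (vertical axis) of every embryo with a value at the windows named in the text (horizontal axis, by stretch and order along the chromosome). Each point is an embryo, filled where densely and open where sparsely covered, and the line is the group mean; close and wide stand for the close-spaced and wide-spaced array. Embryos of a group are spread widely in the arrays, from 0% to 100% in the 9 controls at 59147368, and mutants are few at the Snrpn windows.

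The stretch of Snrpn held 7 windows and none had the 3 embryos per group that a test required. Its best measured position was 59654298. There the controls with a value were replicates 2, 3, 4, 5 and 8, at 55%, 11.1%, 15%, 57.1% and 66.7%. The mutants with a value were replicates 11 and 12, at 16.7% and 0%. Mutant 12 lay below every control and mutant 11 inside their range. The means were 41.0% ± 25.9 (SD, n = 5) and 8.33% (n = 2), a difference of -32.7 points with no test. A window at 59654313, almost the same DNA, repeated these levels except for 15.8% in control 4.

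The other windows of the Snrpn stretch were measured in few embryos. At 59630194 controls 1, 2 and 5 stood at 0%, 50% and 50%, and mutant 12 at 0%. At 59778950 controls 2 and 5 stood at 0% and 20%, and mutant 14 at 0%. At 59802357 control 3 and mutant 12 were at 0% and mutant 14 at 100%, the only mutant value in the stretch above 16.7%. At 59789468 controls 3 and 5 were both at 50%, and at 59628123 control 2 was at 0%. The stretch as a whole averaged 29.8% ± 24.0 (SD, n = 6) in controls against 22.2% ± 25.5 (SD, n = 3) in mutants, and the groups overlapped. At this coverage a difference between the groups in the Snrpn stretch was not detectable, which does not show that there was none.

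The stretch of Ndn, Magel2, Mkrn3 and Peg12, the paternally expressed genes on the far side of Snrpn, showed no common direction. Ndn and Magel2 encode MAGE-family proteins, and Mkrn3 encodes a makorin RING-finger protein. The 9 windows of the stretch averaged 24.9% ± 32.2 (SD, n = 8) in controls against 22.0% ± 21.7 (SD, n = 7) in mutants, with overlap. Densely covered embryos had 1 to 7 of these windows and sparsely covered ones at most 3. The highest control, control 8 at 100%, rests on 1 window, at 62227465. The stretch runs to the last window of the domain, and whether its last windows belong to these genes was not checked. In the densely covered embryos alone the means were 16.6% ± 10.6 (SD, n = 6) and 18% ± 11.3 (SD, n = 3). At 62023758 the lowest, median and highest levels were 0%, 0% and 13.3% in 6 controls and 0%, 0% and 8.33% in 3 mutants. The means of 2.69% and 2.78% differed by 0.0926 points (SE 4.08, adjusted p = 1, limma). At 62333935 the 6 controls averaged 7.53%, and mutants 11, 13 and 14 stood at 0%, 50% and 0%. This gave 9.14 points (SE 11.7, adjusted p = 0.854, limma), a value that rests on mutant 13.

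The other windows of the Ndn to Peg12 stretch were not tested for want of embryos. At 62072494 controls 2 and 3 stood at 33.3% and 37.5%, and mutants 11, 12, 14 and 18 at 50%, 0%, 42.9% and 50%. Mutants lay on both sides of the controls. At 62113759 control 1 stood at 37.5%, controls 3, 4 and 10 at 0%, and mutants 14 and 15 at 0%. At 62227465 controls 1, 3, 4, 5 and 8 stood at 16.7%, 25%, 0%, 44.4% and 100%, and mutant 12 at 20%. At 62069388 controls 2 to 6 ranged from 0% to 50% and mutant 14 stood at 50%. Low levels at 62023758 and intermediate ones at 62072494 were thus found in both groups.

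Before the arrays, at the Atp10a end of the domain, 2 windows were at or near 0% in controls. At 58487187 all 6 controls were at 0%, and mutants 11, 13 and 14 stood at 50%, 0% and 0%. This was the largest increase among the tested windows, 16.7 points (SE 10.3, adjusted p = 0.834, limma), and it came from 1 embryo. At 58875498 the controls averaged 1.34% (n = 6) and the mutants 0.833% (n = 4), and the groups overlapped. The 20 windows before the arrays together averaged 15.1% ± 12.5 (SD, n = 8) in controls against 3.95% ± 5.62 (SD, n = 5) in mutants. The 31 windows of the gap between Snrpn and Ndn averaged 18.2% ± 12 (SD, n = 8) and 5.19% ± 5.06 (SD, n = 6). In both stretches the groups overlapped.

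No window of the domain passed the test across the genome. Windows with at least 3 embryos in each group were fitted with limma on the percent scale, 37645 over all chromosomes and 32 of the 236 in the domain. The numbers past an adjusted p of 0.05 were 11 lower in mutants (0.0292%) and 3 higher (0.00797%) over all windows, and 0 of 32 in the domain in either direction. At an unadjusted p under 0.05 the domain had 4 of 32 (12.5%) lower, against 3.90% of all windows, and 0 higher, against 1.85%. The 4 were 59145496, 59158395, 59160261 and 59511073. An exact rank-sum test, two-sided, also left 0 past the adjusted threshold in the domain and 1 at an unadjusted p under 0.05. The other 204 windows of the domain had too few embryos for a test, 78 of them with no value in any mutant.

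Without a test, the 32 windows had a lower mean in mutants in 25 (78.1%), against 55.9% of all tested windows, and a median difference of -10.6 points, against -1.07. The excess was not seen without mutant 12, the embryo with the lowest mean level over all windows of the table (7.16%). Then 18 windows could be tested and 9 (50%) were lower, against 53.1% of all windows. None had an unadjusted limma p under 0.05. Fewer windows were tested there, so the shares are not of the same windows. Without mutant 11 it was 15 of 20 (75%, against 55.8%), and without mutant 14 it was 14 of 20 (70%, against 61.0%). The count at an unadjusted limma p under 0.05 was 1 of 20 without mutant 11, 2 of 20 without mutant 14 and 2 of 30 without mutant 18. The share of all windows at that threshold was not taken in the runs with an embryo left out. With all embryos, a decrease of at least 20 points was seen in 10 of the 32 (31.2%), against 9.88%, and an increase of that size in 0, against 5.20%. The background was also taken over windows of like control level. Among windows with a control mean of 20% to 60%, the domain had the lower mean in mutants in 16 of 19 (84.2%), against 82.1% of the 9754 windows of that kind. Its median difference there was -16.7 points against -14.7, a decrease of at least 20 points was seen in 8 (42.1%) against 34.8%, and 3 (15.8%) were lower at an unadjusted limma p under 0.05 against 11.6%. Set against windows of like control level, the domain was therefore near the background on these counts.

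In the 9 densely covered embryos 14 windows of the domain were tested and 0 passed, against 0.00694% of 28807 windows in each direction, while 2 (14.3%) were lower at an unadjusted limma p under 0.05, against 3.56%. The mean was lower in mutants in 13 of the 14 (92.9%, against 56.5%), and by at least 20 points in 7 (50%, against 8.67%). With a control mean of 20% to 60%, all 7 such windows were lower in mutants, against 84.9%, 6 (85.7%) by at least 20 points, against 34.3%, and 2 (28.6%) at an unadjusted limma p under 0.05, against 11.9%. Their median difference was -31.2 points against -14.4. These few windows lie near each other, and neighbours share bases, so they do not count as separate observations.

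**Figure D4:**
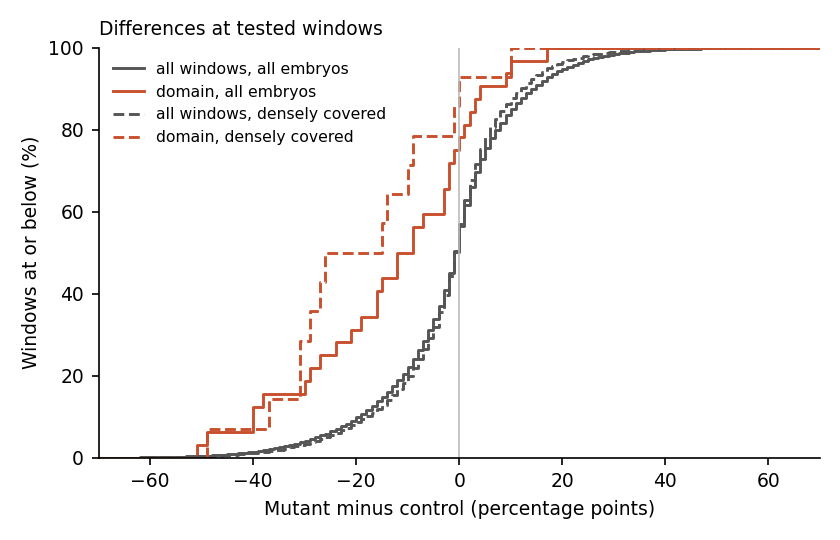
Cumulative share of windows in percent (vertical axis) by the difference in mean methylation, mutant minus control, in percentage points (horizontal axis). Lines show the tested windows of the domain and all tested windows, in all embryos (solid) and in densely covered embryos alone (dashed). The 32 domain windows lie to the left of all windows (median -10.6 against -1.07). So do the 14 tested in densely covered embryos (median -21.2 against -1.03). No line is limited to windows of like control level.

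Over 500 kb tiles the domain passed no test. The level of an embryo in a tile was adjusted for which windows it had: each value was taken relative to the mean of its window, these deviations were averaged, and the tile mean was added back. An adjusted level can therefore lie below 0, and it is given in points and not as a percent methylation. Limma was fitted over 3577 tiles with at least 5 embryos per group, of which 4 (0.112%) passed an adjusted p of 0.05, all lower in mutants. Of the 5 tiles of the domain 4 (80%) had the lower mean in mutants, against 62.8% of all tiles, and 5 tiles are too few to set these shares apart. The tile from 62000001 is among the 4, but 1 of its 3 tested windows, at 62461167, lies outside the domain. Its other windows, at 62023758 and 62333935, had the higher mean in mutants, by 0.0926 and 9.14 points. Of the 5 tiles 0 passed the adjusted or the unadjusted threshold, against 7.72% of tiles lower before adjustment.

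From 58500001 to 59000000 the adjusted levels were 18.1 ± 13.4 points (SD, n = 6) in controls and 4.87 ± 5.23 points (SD, n = 5) in mutants, which lie -13.2 points apart (SE 6.40, adjusted p = 0.607, limma). All 5 mutants there lay below the control mean, and without control 4 the difference was -7.43 points. From 59000001 to 59500000, the tile of the arrays, they were 33.2 ± 21.0 points (SD, n = 10) and 21.9 ± 11 points (SD, n = 10). The difference was -11.3 points (SE 7.15, adjusted p = 0.678, limma), with 8 of 10 mutants below the control mean, and it was -5.94 points without mutant 12 and -16.8 without control 9. By the plain mean of the percent levels it was -13.5 points, with a limma p of 0.0388 before and 0.626 after adjustment. From 59500001 to 60000000 the difference was 4.73 points (SE 15.3, adjusted p = 0.944, limma), and its 4 windows were all in the wide-spaced array. The remaining tiles, starting at 60000001 and 62000001, differed by -6.87 and -2.53 points with limma adjusted p-values of 0.891 and 0.952.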

How the data were processed

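DNA methylation was measured by bisulfite sequencing in 10 control and 10 Padi6-mutant single blastocysts. The submitters' processing notes name Trim Galore 0.4.4, Bismark 0.18.2 and build GRCm39 (mm39). A table deposited by the authors holds methylation levels in percent per promoter window and embryo. Neither a coverage minimum nor the choice of windows is given in the sources used here. Of 54080 rows, 46 repeats were dropped. Of the 491705 values left, 1594 (1 in the domain) were whole numbers above 100, taken for percents without their decimal point and divided by 1000.

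Windows with at least 3 embryos per group, and 500 kb tiles with at least 5, were fitted across the genome with limma 3.58.1 in R 4.3.3 on the percent, with Benjamini-Hochberg adjustment and a threshold of 0.05. A tile level is the mean deviation of an embryo's values from their window means over the tested windows, with the tile mean added back; a plain mean was an alternative. Embryos with a value at 25000 or more windows were called densely covered. The procedure was tested on simulated data. Alternatives were an exact rank-sum test, an arcsine scale, trended and robust variance, stricter minimums, other tile sizes, either coverage class alone and each embryo left out.

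The members, stretches and lists were chosen with earlier results of these data known. Windows are named by a rule: the 4 measured in the most embryos in each stretch, and the 3 largest decreases and increases. The arrays and the other Snrpn and Ndn to Peg12 windows were added after the values were seen. The list of other imprinted genes and the windows of single member genes were not analysed here, because the gene and promoter tables were on GRCm38.p6.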

Additional observations from a re-analysis of the deposited data

Results flagged for a closer look

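In 41 groups of 4 to 10 embryos the highest or the lowest level was set against the spread of the rest, and 9 stood apart from the others by more than Dixon's limit. The limit is set to flag about 1 in 20 groups of independent, normally distributed values. These levels lie on coarse steps and the groups share embryos and windows, so the 9 cannot be set against that rate. Among stretches, control 9 stood at 0% in the stretch first drawn for Atp10a to Ube3a, where 77 of 97 windows belong to the close-spaced array and the next control was at 18.3%. Control 7 stood at 89.3% in the wide-spaced array, and at the same level in the stretch of 92 windows first drawn for the small nucleolar RNA genes, which holds that array and 28 windows of the close-spaced one, with the next control at 50% and 50.5%. Control 8 stood at 100% in the Ndn to Peg12 stretch, with the next control at 30.6%. These 3 controls were all sparsely covered. The levels of controls 8 and 9 rest on 1 window each, and that of control 7 on 5. Among windows, mutant 14 stood at 3.33% at 58875498 and the other mutants at 0%. Mutant 11 stood at 50% at 59145496, with the next mutant at 8.33%. Control 4 stood at 13.3% at 62023758, with the next at 2.78%. Mutant 12 was at 0% at 62072494, where the next mutant was at 42.9%, and control 1 was at 37.5% at 62113759, where the other controls were at 0%.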

How the results depend on the processing

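No window of the domain passed the adjusted threshold under any alternative run. For windows the alternatives were 28. The tiles from 58500001, 59000001, 59500001 and 62000001 were followed under the alternatives, and none passed where it could be fitted. The tile from 60000001 and other tiles of 200 kb were not followed. The count at an unadjusted p under 0.05 was 4 of 32. It became 0 of 7 with at least 5 embryos per group, 2 of 14 in densely covered embryos, 1 by the exact rank-sum test and 0 to 5 with an embryo left out. For the rank-sum test and the runs with an embryo left out, no share of all windows is given, so these counts are not set against a background. Over the genome 14 windows passed, 0 at a minimum of 5, 3 at a minimum of 7, 1 on the arcsine scale, 0 with a trended variance and 0 by the exact rank-sum test; without mutant 12 it was 0 and without control 3 it was 4. The tile from 59000001 stayed lower in mutants in every alternative, with -17.4 points (limma adjusted p = 0.195) when windows with 1 embryo were kept, -21.3 points in densely and -5.82 in sparsely covered embryos, and -16.8 to -5.94 with an embryo left out. The tile from 58500001 ranged from -15.4 to -7.43, the latter without control 4, and its exact rank-sum p was 0.0346 before and 0.453 after adjustment.

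Some directions turned. The tile from 59500001 moved from 4.73 points to -33.3 in densely covered embryos, and ranged from -3.72 to 14.8 with an embryo left out. Without control 1, control 8, mutant 19 or mutant 20 it was -0.300, -2.20, -3.50 and -3.72. At 1 Mb it is merged with the tile from 59000001, and the joint tile stood at -6.23. The tile from 62000001 became 0.340 at 1 Mb, and 1.86 without control 4, within a range of -4.46 to 1.86. Its value of -41 points in densely covered embryos came from 1 window, at 62461167, which lies outside the domain. In densely covered embryos the windows at 59549029 and 59551555 became -26.5 and -31.7 points. With an embryo left out they ranged from -1.09 to 18.9 and from -4.98 to 11.7, with the windows at 62023758 from -0.444 to 2.22 and at 59360351 from -13.0 to 4.87. The cause was not tested.

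Among mean levels, the close-spaced array ranged from -18.0 to -12.8 points and the wide-spaced array from -15.8 to -7.39 with an embryo left out, the gap from -15.7 to -10.9 and the windows before the arrays from -13.3 to -8.58. The Snrpn stretch ranged from -21.5 to 3.50 and the Ndn to Peg12 stretch from -7.58 to 7.81, so neither kept its direction. Before the arrays the difference was 0.0 in sparsely covered embryos. At the tile positions followed under the alternatives, tiles of 200 kb, or of sparsely covered embryos, could be fitted only at 59000001.

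No paired analysis was possible because control and mutant replicates share no number. Depth is unknown, and coarse steps of the levels limit single windows more than the array means.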
